A study of Mus musculus with 12 samples.

Results

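The 38 genes described here carry a cell through S phase and mitosis, and they were taken from a fixed list of proliferation genes, matched to the 46078 genes of the read count file by their GENCODE mouse symbols. All 38 were found: 19 act mainly in S phase (Ccne1, Ccne2, Cdc6, Cdc45, Cdt1, Mcm2, Mcm3, Mcm4, Mcm5, Mcm6, Mcm7, Pcna, Rrm1, Rrm2, Tyms, Tk1, Gins2, E2f1 and E2f8) and 19 in G2 and mitosis (Mki67, Top2a, Ccnb1, Ccnb2, Ccna2, Cdk1, Cdc20, Aurka, Aurkb, Bub1, Bub1b, Plk1, Birc5, Kif11, Kif20a, Tpx2, Cenpe, Cenpf and Foxm1). The RNA came from spleens of C57BL/6 mice aged 8 to 12 weeks, from follicular (FO) B cells, the recirculating B cells of the follicles, and from marginal zone (MZ) B cells, which sit beside the marginal sinus and answer quickly to blood-borne antigen. Control mice carried VAVcre alone (the genotype label calls them WT), and CKO mice carried VAVcre with a conditional knockout of Zbtb24, a zinc finger gene mutated in a form of ICF syndrome. VAVcre is Cre recombinase under Vav regulatory elements, which are active in blood-forming cells, so Zbtb24 was targeted in every blood lineage and not in B cells alone. Each of the 4 groups (FO control, FO CKO, MZ control, MZ CKO) had 3 libraries from cells separated with a magnetic kit. The label of each library holds an animal number, and each of the 6 numbers occurs once in FO and once in MZ, from which it was inferred that both libraries came from 1 mouse.

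Cells enter S phase when cyclin E with its kinase releases E2F transcription factors, which switch on the genes for origin licensing, nucleotide synthesis and the replication fork. Later in the cycle, B-MYB and FOXM1 with the MuvB complex switch on the mitotic genes through a CHR element in their promoters. Resting cells keep both programmes low through the DREAM complex, which sits at the same E2F and CHR sites. Naive FO and MZ B cells are mostly quiescent, so such RNA in a bulk library can come from a few cycling cells. A change in the number of those cells and a change in RNA per cell cannot be told apart in these libraries.

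Promoters of 7 of the genes are shown to set the letters of the mitotic programme beside those of the S phase programme, since both groups of genes are compared below. Each is the 120 bases before the RefSeq start on GRCm38.p6, written 5′ to 3′ on the gene's strand. Capitals mark CHR letters (TTTGAA or TTCGAA, of which the second is its own reverse complement), CCAAT, and E2F letters (TTTCGCGC, TTTGGCGC, TTTCCCGC or TTTGCCGC), each searched on both strands, so that a reverse match reads TTCAAA or ATTGG.
Mki67 (chr7:135716380-135716499, minus strand): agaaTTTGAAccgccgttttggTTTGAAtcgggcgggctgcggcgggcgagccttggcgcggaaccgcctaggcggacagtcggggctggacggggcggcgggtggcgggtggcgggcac
Top2a (chr11:99024190-99024309, minus strand): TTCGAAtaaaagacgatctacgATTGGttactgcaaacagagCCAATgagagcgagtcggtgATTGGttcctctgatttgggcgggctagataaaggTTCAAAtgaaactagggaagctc
Kif11 (chr19:37376262-37376381, plus strand): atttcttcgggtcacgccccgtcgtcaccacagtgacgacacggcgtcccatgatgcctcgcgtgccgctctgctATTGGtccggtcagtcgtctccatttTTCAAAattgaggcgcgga
Ccnb2 (chr9:70421555-70421674, minus strand): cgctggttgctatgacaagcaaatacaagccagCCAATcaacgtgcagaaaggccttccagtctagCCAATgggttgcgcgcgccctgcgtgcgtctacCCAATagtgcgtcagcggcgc
E2f8 (chr7:48881597-48881716, minus strand): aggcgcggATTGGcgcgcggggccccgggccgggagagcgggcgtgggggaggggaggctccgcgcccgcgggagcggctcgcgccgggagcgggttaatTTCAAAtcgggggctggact
Mcm6 (chr1:128359706-128359825, minus strand): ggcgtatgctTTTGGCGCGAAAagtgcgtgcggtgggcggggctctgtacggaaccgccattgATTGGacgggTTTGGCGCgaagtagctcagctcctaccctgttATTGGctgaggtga
Cdt1 (chr8:122567895-122568014, plus strand): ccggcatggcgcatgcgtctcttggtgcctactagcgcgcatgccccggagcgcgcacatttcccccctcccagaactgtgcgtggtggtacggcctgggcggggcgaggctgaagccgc
Mki67 and Top2a (in the mitotic group) showed CHR letters at 2 places each in these windows, and Kif11 showed them too. Ccnb2 showed CCAAT 3 times and no CHR letters. E2f8, of the S phase group, showed CHR letters and CCAAT but no E2F match. Mcm6 (a subunit of the replicative helicase) showed 3 E2F matches, a pair of which overlap on opposite strands, whereas the window of Cdt1 held none of the letters searched. In the 250 bases before the start, CHR letters occurred in 7 of 14 promoters of G2 and mitosis genes, 4 of 17 promoters of S phase genes and 17.1% of all 32851 promoters in the RefSeq table. CCAAT occurred in 13 of 14, 11 of 17 and 33.8%, and E2F letters in 1 of 14, 4 of 17 and 1.86%, in the same order. These counts cover 31 promoters of 30 of the 38 genes. Tpx2, Mcm4, Ccna2, Kif20a, Ccne2, Gins2, Foxm1 and Aurkb had no entry. A match is a run of letters and not a site shown to be bound.

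The libraries held 36340116 to 44629250 reads assigned to genes, and the 38 genes received 57 to 8047 reads each per library. Zbtb24 stood at 62.5, 60.8 and 60.8 CPM in FO control, 48.3, 46.9 and 50.04 in FO CKO, 49.1, 53.0 and 54.4 in MZ control and 46.4, 41.8 and 41.9 in MZ CKO libraries. Its CKO libraries lay below its control libraries in each subset, but the count covers the whole gene and the deleted part is not given in the labels, so remaining reads do not measure deletion. The summed MZ marker list was 2.56 to 3.13 times as high in the MZ as in the FO library of each mouse, the direction the labels give, and the 7 pan B cell markers summed to 7197 to 9332 CPM (counts scaled to a common library size, with TMM factors). Mouse 1514 (replicate 2 of the CKO groups) stood apart from the other 5 mice in these genes, in FO and in MZ B cells alike. The genotype comparisons within a subset and the subset comparisons that use its libraries are therefore given with and without them. The difference of genotype effects was refitted without its FO or its MZ library, but not without both.

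Per kilobase of exon (RPKM, mean of 12 libraries), S phase genes held the top ranks, but Ccne2, Gins2 and E2f8 ranked 35, 36 and 37 of 38. The highest levels were those of Pcna, the sliding clamp of the replication fork, at 40.7, Cdt1, which loads the helicase at origins, at 33.0, and Mcm5 at 25.9. Mcm3, Mcm4, Mcm6 and Mcm7, which with Mcm2 and Mcm5 form the helicase, lay between 23.2 and 23.8, and Mcm2 lay at 12.6. The annotated exons of Mcm2 are longer (6956 bases, against 3752 for Mcm3 and 3589 for Mcm4). Its mean CPM in FO control was like theirs (79.0, against 81.1 and 82.9). Among mitotic genes the highest RPKM were those of Cdc20 (an activator of the anaphase-promoting complex, 8.37), Mki67 (the Ki-67 proliferation antigen, 7.84) and Top2a (topoisomerase II alpha, 7.41). The lowest of the 38 was Cenpf, a kinetochore protein, at 0.563.

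The libraries of mouse 1514 carried the highest level of all 19 G2 and mitosis genes in both FO and MZ B cells, and of 17 (FO) and 18 (MZ) of the 19 S phase genes. Against the median of the other 5 mice, its mitotic genes were higher by a median of 2.79-fold in FO, from 1.25-fold for Foxm1 to 5.57-fold for Bub1, and by 2.70-fold in MZ. Its S phase genes were higher by a median of 1.47-fold in FO, from 1.02-fold for Tk1 to 4.96-fold for Cdc6, and by 1.71-fold in MZ. Among control mice, mouse 1507 (control replicate 2) was the highest for 18 of 19 mitotic genes in each subset, and for 13 (FO) and 17 (MZ) of 19 S phase genes. These are descriptions of single mice and carry no test. The highest and lowest FO libraries differed 8.07-fold for Ccna2 (cyclin A) and 6.26-fold for Mki67, but 1.22-fold for Cdt1 and 1.33-fold for Tk1.

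**Figure D1:**
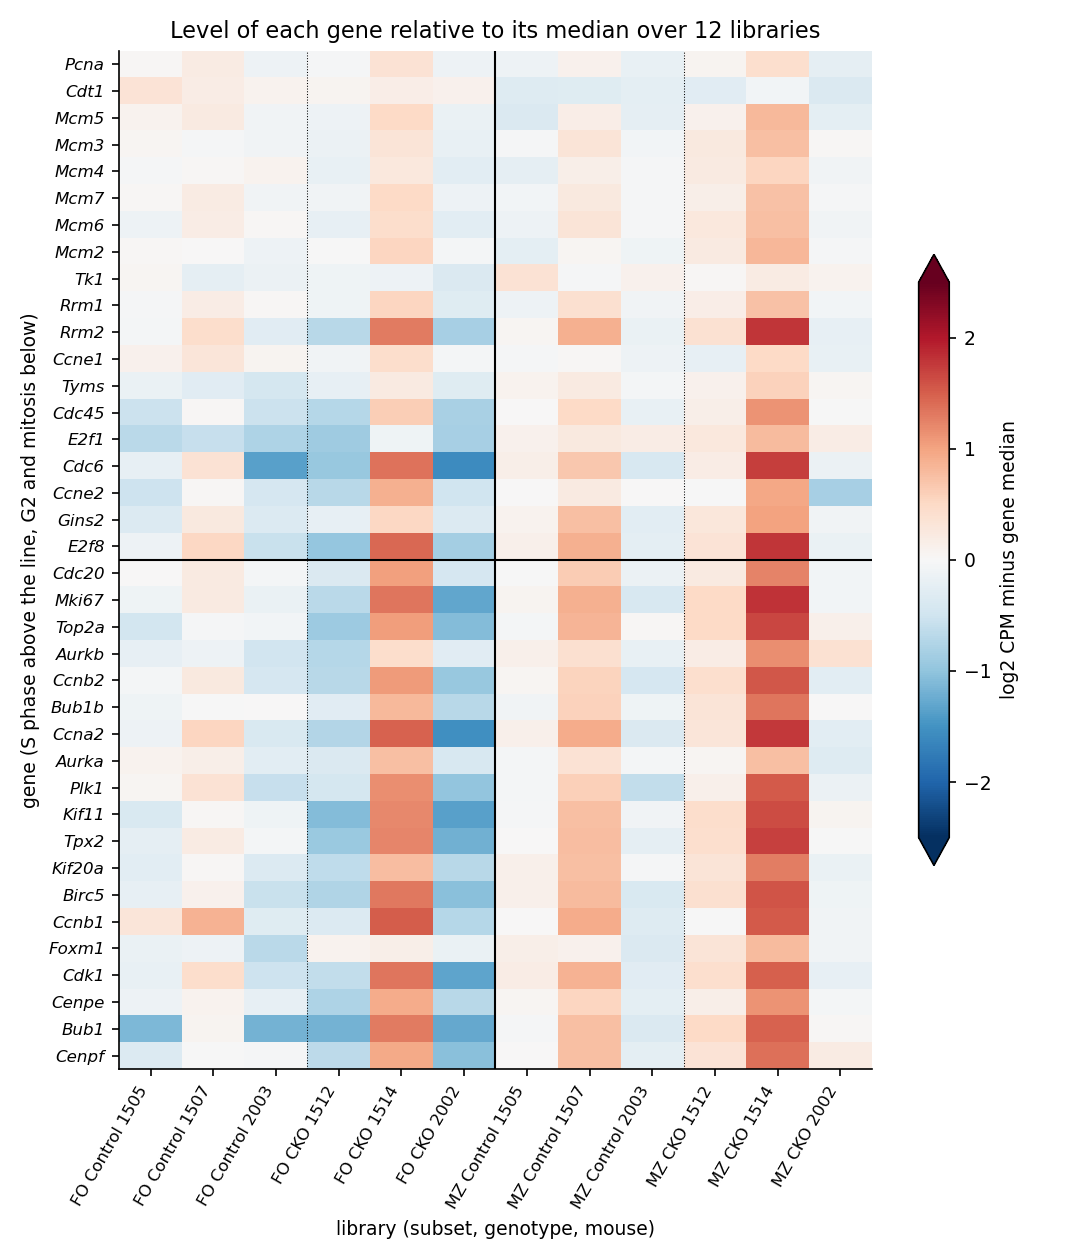
Log2 CPM of each of the 38 genes minus that gene's median over 12 libraries, one row per gene (S phase above the line, G2 and mitosis below, ordered by RPKM) and one column per library (FO left, MZ right, named by genotype and mouse). Both columns of mouse 1514 are the darkest red, and Pcna, Cdt1, Tk1 and Ccne1 stay pale across all columns.

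The summed level of the 19 mitotic genes was highest in mouse 1514 as well. It was 234, 295 and 233 CPM in FO control (mice 1505, 1507 and 2003, in this order throughout), 170, 572 and 140 in FO CKO (mice 1512, 1514 and 2002, in this order throughout), 273, 449 and 233 in MZ control, and 350, 782 and 268 in MZ CKO. The FO libraries of the other CKO mice, 1512 and 2002, were the lowest of the 12. For the 19 S phase genes the sums were 964, 1023 and 899 CPM in FO control, 866, 1249 and 829 in FO CKO, 861, 1066 and 876 in MZ control, and 1024, 1481 and 869 in MZ CKO. The S phase sums therefore spread much less than the mitotic sums.

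**Figure D2:**
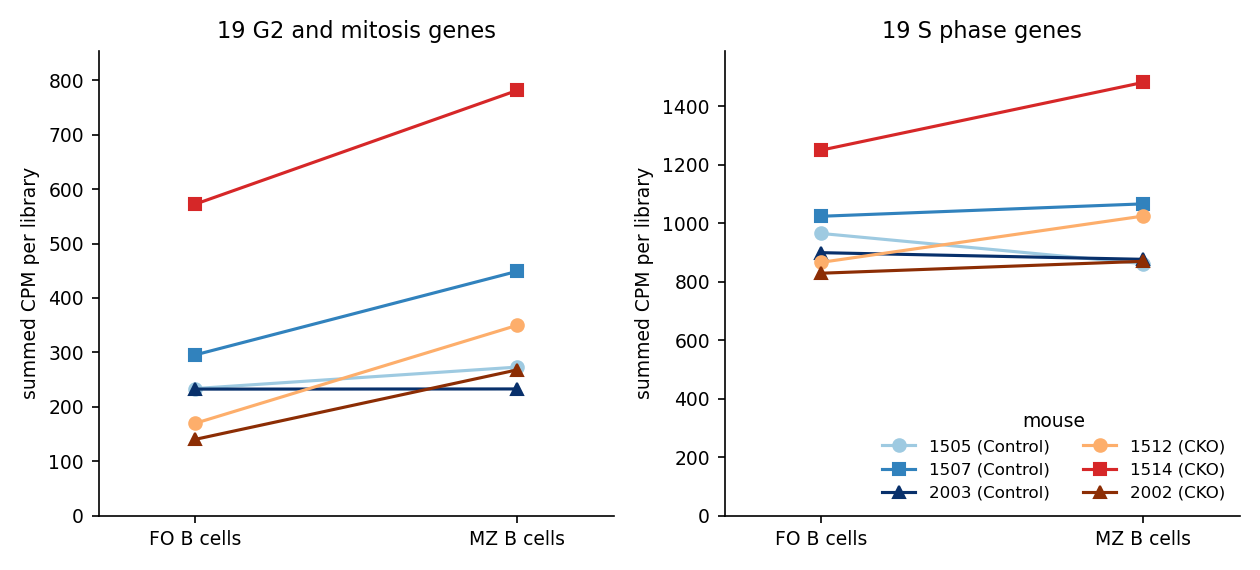
Summed CPM of the 19 G2 and mitosis genes (left) and the 19 S phase genes (right) in each library, with a line joining the FO and MZ library of each mouse. Mouse 1514 lies above all others in both panels (572 and 782 CPM for the mitotic genes), and the mitotic lines of mice 1512 and 2002 rise from the lowest FO values.

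Markers of other cells moved with mouse 1514 too. The 12 erythroid precursor markers summed to 225, 331 and 66.7 CPM in FO control, 122, 438 and 74.7 in FO CKO, 164, 271 and 52.5 in MZ control and 97.3, 357 and 63.9 in MZ CKO, all 12 of them detected. The 7 myeloid precursor markers summed to 2.44, 8.68 and 1.98 CPM in FO control, 3.15, 17.7 and 4.88 in FO CKO, 0.971, 5.10 and 0.790 in MZ control and 2.11, 11.4 and 2.07 in MZ CKO, with a mean under 1 CPM for 6 of the 7. The sum of 10 mature neutrophil markers was 3.04 times (FO) and 3.40 times (MZ) the median of the other 5 mice in mouse 1514. The sum of 10 germinal centre markers was 1.23 times that median in both subsets, and that of pan B cell markers 0.945 and 0.890 times. For the other lists (B cell precursor, plasma cell, T cell, macrophage and monocyte, dendritic, FO and MZ B cell markers) it ran from 0.936 (FO B) to 1.43 (dendritic) in FO and from 0.853 (FO B) to 1.61 (B cell precursor) in MZ libraries. No marker of any list was at 0 in all libraries. In each subset, mouse 1507 among controls and mouse 1514 among CKO mice had both the highest erythroid and the highest mitotic sum. Mice 1505 and 2003 had FO mitotic sums of 234 and 233 CPM at erythroid sums of 225 and 66.7 CPM. The part of these other cells in the level of the 38 genes was not tested.

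**Figure D3:**
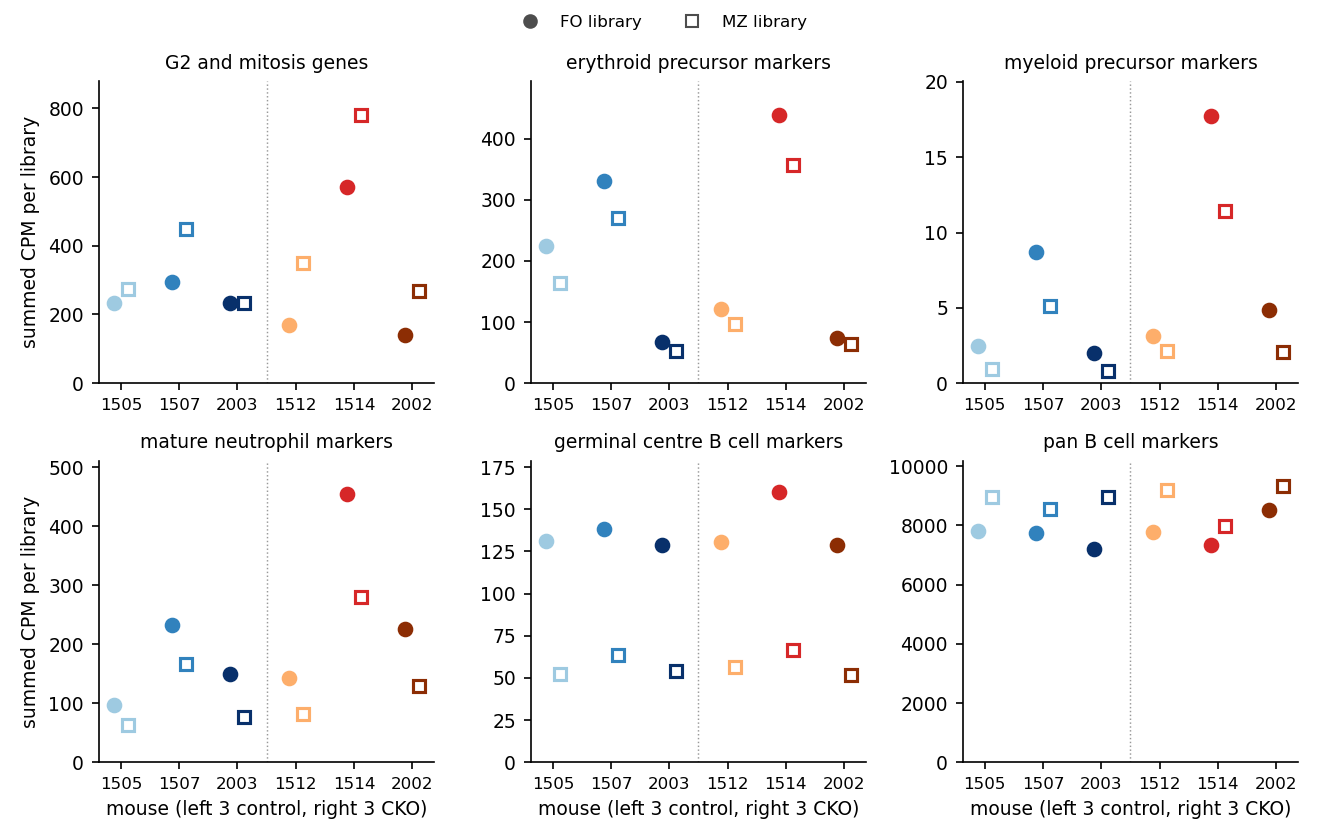
Summed CPM per library of the 19 G2 and mitosis genes and of 5 marker lists, by mouse (3 control left of the dotted line, 3 CKO right), with filled circles for FO and open squares for MZ libraries. Erythroid, myeloid precursor and neutrophil sums peak in mouse 1514 and are lower in MZ than in FO in every mouse, whereas the mitotic sum is higher in MZ or level.

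The first comparison asks whether loss of Zbtb24 in blood-forming cells goes with another level of proliferation genes in FO B cells. No member passed in either direction by edgeR's quasi-likelihood test at an adjusted p of 0.05 (Benjamini-Hochberg, across the 17777 genes in the fit). Of those genes 0.0563% were called higher and 0.0338% lower in CKO. DESeq2 also called 0 of the 38, and 0 members had an unadjusted p under 0.05 in either tool. The log2 fold change (CKO minus control) was above 0 for all 19 mitotic genes (median 0.19) and 14 of 19 S phase genes (median 0.08), against a median of 0.01 over all genes tested. For no member did the 3 CKO libraries all lie above or all below the 3 control libraries, a pattern shown by 4.44% (above) and 4.88% (below) of all genes tested.

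Mki67 (chr7:135689784-135716361, minus strand) stood at 54.4, 69.1 and 52.7 CPM in the FO control libraries, 37.1, 149 and 23.8 in FO CKO, 61.6, 109 and 44.5 in MZ control and 83.5, 205 and 56.3 in MZ CKO. The lowest and the highest FO libraries were both CKO, and the FO means were 58.7 ± 9.004 CPM in control and 69.99 ± 68.8 in CKO (SD, n = 3). Its FO difference was 0.26 ± 0.81 (log2, SE, adjusted p = 0.9995 by edgeR). Top2a, which untangles sister chromatids, stood at 38.2, 51.97 and 50.3 CPM in the FO control libraries, 28.1, 108 and 24.8 in FO CKO, 50.9, 95.4 and 53.7 in MZ control and 74.1, 168 and 57.5 in MZ CKO. As for Mki67, the CKO libraries of FO B cells lay on both sides of all 3 controls.

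Ccnb1 (cyclin B) stood at 6.32, 9.40 and 4.15 CPM in the FO control libraries, 4.04, 14.7 and 3.12 in FO CKO, 5.14, 9.81 and 4.12 in MZ control and 5.14, 14.9 and 4.86 in MZ CKO. Its partner kinase gene Cdk1 stood at 4.83, 7.46 and 3.83 CPM in the FO control libraries, 3.60, 13.9 and 2.20 in FO CKO, 6.30, 10.01 and 4.51 in MZ control and 7.42, 15.6 and 4.78 in MZ CKO. Plk1, a kinase of spindle assembly, stood at 5.23, 6.55 and 3.41 CPM in the FO control libraries, 3.75, 11.4 and 2.57 in FO CKO, 4.93, 7.69 and 3.30 in MZ control and 5.56, 14.7 and 4.61 in MZ CKO. All 3 genes followed the order seen for Mki67, with mouse 1514 highest and mice 1512 and 2002 below the FO control range, except that FO Plk1 in mouse 1512 (3.75) lay above the lowest control (3.41).

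The 3 members with the smallest p in FO were Foxm1, Tyms and Cdt1. Foxm1, the transcription factor of the mitotic programme, stood at 7.47, 7.70 and 5.27 CPM in the FO control libraries, 8.96, 9.32 and 7.44 in FO CKO, 9.29, 9.02 and 6.49 in MZ control and 10.5, 14.5 and 7.84 in MZ CKO. It differed by 0.34 ± 0.17 (log2, SE, edgeR adjusted p = 0.9995), and its FO level in mouse 1512 lay above all 3 controls and that in mouse 2002 among them. Tyms (thymidylate synthase, chr5:30058202-30073617, minus strand) stood at 17.2, 15.7 and 14.05 CPM in the FO control libraries, 16.7, 22.4 and 15.5 in FO CKO, 20.3, 22.3 and 18.4 in MZ control and 20.7, 28.6 and 19.9 in MZ CKO. Cdt1 (chr8:122568015-122573554, plus strand) stood at 134, 121 and 113 CPM in the FO control libraries, 111, 118 and 114 in FO CKO, 84.5, 86.5 and 90.03 in MZ control and 87.5, 102 and 82.4 in MZ CKO. Their FO differences were 0.22 ± 0.15 and -0.10 ± 0.07 (log2, SE, edgeR adjusted p = 0.9995 for both), with overlapping groups.

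Leaving out FO CKO replicate 2 (mouse 1514) turned the direction. The log2 difference was then below 0 for 36 of 38 members, with a median of -0.69 in the mitotic and -0.23 in the S phase group, and 22 of 38 members had an unadjusted p under 0.05, as 5.57% of the 18165 genes in that fit had. At the adjusted threshold 0.0440% of genes were called higher and 0.0440% lower. Of the 38, Kif11 alone, the motor that pushes spindle poles apart, fell (log2 -1.07 ± 0.16, edgeR adjusted p = 0.0421). Kif11 (chr19:37376403-37421859, plus strand) stood at 12.3, 16.2 and 14.8 CPM in the FO control libraries, 7.48, 36.4 and 6.24 in FO CKO, 15.6, 26.8 and 15.1 in MZ control and 21.6, 49.6 and 16.7 in MZ CKO. Both remaining FO CKO libraries lay below all 3 controls. The library left out held the highest FO level of Kif11, so this call is no independent support. Without that library, Tpx2 (a spindle assembly factor) differed by -1.04 (adjusted p = 0.0958), Mki67 by -0.94 (adjusted p = 0.773) and Ccna2 by -1.14 (adjusted p = 0.863). With both mice 1507 and 1514 out, an alternative chosen after the data were seen, 34 of 38 were below 0 and Kif11 stood at -0.98 (adjusted p = 0.153). With all 6 libraries and the replicate number as a block, 17 of 38 members were above 0, the median was -0.01 and 0 members passed.

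In MZ B cells the same question gave 0 members higher and 0 lower in CKO by edgeR, against 0.0566% and 0.0227% of 17658 genes tested, and 0 by DESeq2. No member had an unadjusted p under 0.05 in either tool. The log2 difference was above 0 for 37 of 38 members, with a median of 0.52 in the mitotic and 0.27 in the S phase group and of 0.00 over all genes tested. Again no member had its CKO libraries all above or all below the controls, as 3.65% and 3.98% of all genes tested had. Mki67 differed by 0.67 ± 0.66 (log2, SE, edgeR adjusted p = 0.99995). With the replicate number as a block, 36 of 38 members were above 0 (median 0.32). Mki67 alone passed (0.56, edgeR adjusted p = 0.00947), beside 40 genes higher and 17 lower of 17658. At an unadjusted p under 0.05 that fit gave 24 members, beside 837 of all genes tested. No label pairs these control and CKO mice.

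The smallest p in MZ belonged to Mcm2, Foxm1 and Mcm4. Mcm2 stood at 82.7, 80.8 and 73.4 CPM in the FO control libraries, 80.2, 117 and 77.6 in FO CKO, 68.4, 83.5 and 74.5 in MZ control and 94.4, 144 and 78.4 in MZ CKO. Mcm4 stood at 79.5, 82.7 and 86.5 CPM in the FO control libraries, 71.8, 97.5 and 67.9 in FO CKO, 69.4, 89.7 and 80.4 in MZ control and 95.9, 118 and 76.7 in MZ CKO. Their MZ differences were 0.48 ± 0.25 and 0.28 ± 0.17, and that of Foxm1 was 0.41 ± 0.23 (log2, SE, edgeR adjusted p = 0.99995 for all 3). For Mcm2 the CKO libraries of mice 1512 and 1514 exceeded all MZ controls and that of mouse 2002 did not. Without MZ CKO replicate 2, 14 of 38 members were above 0 and the median was -0.03, so that its direction changed without mouse 1514. Without both mice 1507 and 1514, 33 of 38 were above 0 with a median of 0.18, and 0 passed.

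**Figure D4:**
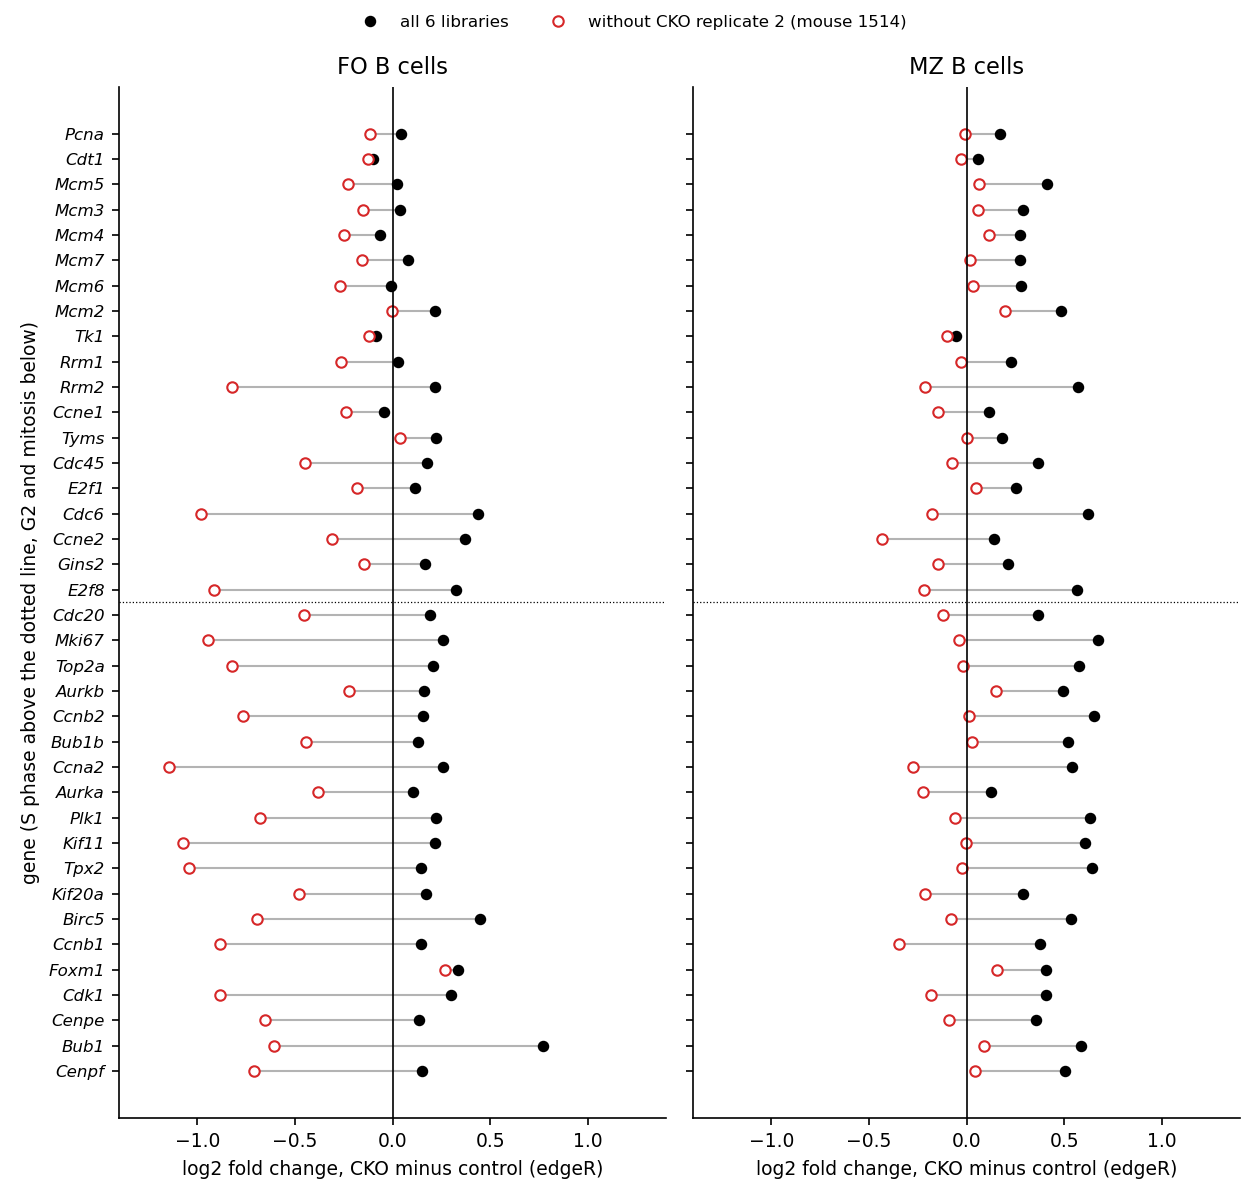
Log2 fold change of each gene (CKO minus control, edgeR) in FO (left) and MZ (right) B cells, with filled circles for all 6 libraries and open circles for the fit without CKO replicate 2 (mouse 1514). In FO the open circles lie left of 0 for 36 of 38 genes, and in MZ they cluster around 0 (median -0.03).

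The difference between both genotype effects (MZ minus FO, all 12 libraries) asks whether the knockout acted unlike in the 2 subsets. No member passed in either direction by edgeR, as no gene of the 18546 tested did (0% higher, 0% lower), and DESeq2 called 0. At an unadjusted p under 0.05 there were 0 members and 238 genes. The median over the 38 was 0.22, with 35 above 0. Without FO CKO replicate 2 the median was 0.80 with all 38 above 0, and without MZ CKO replicate 2 it was -0.22. Each of these fits kept the other library of mouse 1514, so neither median describes the difference without that mouse. With all 12 libraries and the animal as a block the median was 0.30. Again 0 members passed (smallest edgeR adjusted p 0.555, for Mcm4), beside 3 genes higher and 1 lower. At an unadjusted p under 0.05 that blocked fit gave 14 members, beside 968 of all 18546 genes.

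MZ and FO B cells of the same mice were compared next, a comparison of 2 resting subsets. In control mice, E2f1 and Tyms were higher and Cdt1 lower in MZ in the fit without pairing, 2 and 1 of 38, against 14.9% and 13.0% of 17830 genes tested (edgeR; DESeq2 called 3 and 1). With the animal as a block, 14 members were higher (Cdc6, Cdc45, Rrm2, Tyms, Tk1, E2f1, Ccna2, Cdk1, Aurkb, Bub1, Birc5, Kif11, Kif20a and Foxm1) and 3 lower (Ccne1, Cdt1 and Mcm5), against 22.4% and 21.3% of all genes. In CKO mice the unpaired fit called E2f1 and Tk1 higher and Cdt1 lower, against 10.5% and 7.78% of 17712 genes. With the animal as a block, 30 of 38 were higher and Cdt1 lower in MZ of CKO mice, with Ccne1, Ccne2, Mcm5, Pcna, Ccnb1, Aurka and Kif11 passing in neither direction, against 19.2% and 16.6% of all genes. In the mitotic group 16 of 19 members rose in CKO mice (median log2 0.73) and 8 of 19 in control mice (median 0.23) under the block. The difference between these effects is the one tested above, which no member passed.

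E2f1 (chr2:154559407-154569892, minus strand), a transcription factor that opens S phase, stood at 4.18, 4.496 and 3.93 CPM in the FO control libraries, 3.62, 6.25 and 3.77 in FO CKO, 7.22, 7.98 and 7.64 in MZ control and 8.04, 11.6 and 7.65 in MZ CKO. All 6 MZ libraries exceeded all 6 FO libraries, and the MZ over FO ratio within a mouse ran from 1.73 to 2.22. E2f1 rose by 0.86 ± 0.14 in control mice (edgeR adjusted p = 0.000776) and 1.01 ± 0.26 in CKO mice (adjusted p = 0.0260), on the log2 scale. Cdt1, whose values are above, went the other way in all 6 mice, with ratios of 0.628 to 0.860. It fell by 0.50 on the log2 scale (SE 0.08, edgeR adjusted p = 0.000480) in control mice and by 0.33 (SE 0.08, adjusted p = 0.0252) in CKO mice. In control mice both calls held when any 1 library was left out. In CKO mice, where the unpaired adjusted p lay near the threshold, E2f1 passed only without FO CKO replicate 2 (adjusted p = 0.00554) or MZ CKO replicate 3 (0.0422), reaching 0.102 without FO CKO replicate 1, and Cdt1 only without MZ CKO replicate 2 (0.00685), reaching 0.0950 without MZ CKO replicate 1. With the animal as a block, E2f1 and Cdt1 passed in CKO mice with all libraries (5.51e-07 and 0.000227) and without mouse 1514 (7.11e-07 and 0.000425).

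Tyms, Tk1 and Rrm2, of the nucleotide synthesis genes, were higher in MZ in all 6 mice, and Rrm1 was not. Tyms rose by 0.38 ± 0.11 in control mice (log2, SE, edgeR adjusted p = 0.0218), and its ratio ran from 1.18 to 1.42 over the 6 mice. The unpaired call was lost without FO control replicate 2 or 3 or MZ control replicate 1 or 2 (adjusted p 0.0567 to 0.0789), and under the block the adjusted p was 6.71e-05, or 0.0158 without mouse 1507. Tk1 (thymidine kinase, chr11:117815526-117826092, minus strand) stood at 51.6, 42.6 and 44.98 CPM in the FO control libraries, 46.4, 45.7 and 38.8 in FO CKO, 64.1, 49.1 and 53.6 in MZ control and 50.5, 57.6 and 52.8 in MZ CKO. It rose by 0.30 ± 0.09 in CKO mice (adjusted p = 0.0479), and its ratio ran from 1.09 to 1.36. This call was lost when any 1 library was left out (adjusted p 0.0707 to 0.157), and under the block the adjusted p was 0.00154, or 0.0168 without mouse 1514. Rrm2, the regulated subunit of ribonucleotide reductase, stood at 14.2, 19.7 and 11.9 CPM in the FO control libraries, 9.03, 35.9 and 8.23 in FO CKO, 15.01, 26.9 and 13.1 in MZ control and 19.04, 50.5 and 12.6 in MZ CKO. Its ratio was 1.06 to 2.11, and it rose under the block by 0.23 ± 0.09 in control mice (adjusted p = 0.0233) and 0.72 ± 0.10 in CKO mice (adjusted p = 6.03e-06). Without mouse 1507 the control value was 0.11 (adjusted p = 0.528), and without mouse 1514 the CKO value was 0.87 (adjusted p = 3.64e-07). Rrm1, the constant subunit, had a ratio of 0.926 to 1.21. Under the block Rrm1 differed by 0.00 in control mice (adjusted p = 0.9601) and rose by 0.24 in CKO mice (adjusted p = 0.00445).

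The helicase and clamp genes differed from each other and between genotypes in what passed. Mcm5 stood at 103, 113 and 90.8 CPM in the FO control libraries, 88.1, 137 and 85.9 in FO CKO, 75.4, 109 and 82.6 in MZ control and 104, 170 and 81.8 in MZ CKO. Pcna stood at 96.6, 109 and 86.7 CPM in the FO control libraries, 92.9, 121 and 86.8 in FO CKO, 86.5, 102 and 83.6 in MZ control and 99.2, 127 and 80.96 in MZ CKO. Mcm5 was higher in MZ in 2 of 6 mice and fell under the block in control mice (log2 -0.21 ± 0.06, edgeR adjusted p = 0.00364). Pcna was higher in MZ in 2 of 6 mice and passed in neither genotype under the block (adjusted p = 0.159 and 0.763). In CKO mice Mcm2, Mcm3, Mcm4, Mcm6 and Mcm7 rose under the block, by 0.19 (Mcm2) to 0.35 (Mcm3) on the log2 scale (adjusted p 0.000125 to 0.0263). Without mouse 1514, Mcm3, Mcm4 and Mcm6 passed (adjusted p 0.00327 to 0.00678), and Mcm2 (0.297) and Mcm7 (0.139) did not. In control mice none of these 5 passed. Cdc6 and Cdc45, which help to load and start the helicase, were higher in MZ in all 6 mice, with ratios of 1.24 to 2.70 and 1.26 to 1.81. They rose under the block in control mice (adjusted p = 0.000161 and 0.000308) and CKO mice (adjusted p = 0.00236 and 2.33e-05).

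Ccne1, one of the genes for cyclin E, stood at 18.8, 21.6 and 18.2 CPM in the FO control libraries, 16.4, 23.7 and 16.8 in FO CKO, 16.98, 17.9 and 16.02 in MZ control and 15.2, 24.7 and 15.3 in MZ CKO. Ccne2 stood at 2.12, 3.09 and 2.27 CPM in the FO control libraries, 1.88, 5.62 and 2.15 in FO CKO, 3.07, 3.54 and 3.05 in MZ control and 3.03, 5.91 and 1.71 in MZ CKO. Ccne1 was lower in MZ in 5 of 6 mice and fell under the block in control mice (log2 -0.20 ± 0.08, edgeR adjusted p = 0.0363). That call was lost without mouse 1507 (-0.17, adjusted p = 0.263), and in CKO mice Ccne1 differed by -0.05 (adjusted p = 0.720). Ccne2 was higher in MZ in 5 of 6 and passed in neither genotype (adjusted p = 0.0573 and 0.523).

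In the mitotic group, Bub1, a spindle checkpoint kinase, had the highest median ratio (1.95, from 1.12 to 3.21). Bub1 rose under the block by 0.85 ± 0.16 in control mice (log2, SE, edgeR adjusted p = 4.80e-06) and 0.94 ± 0.30 in CKO mice (adjusted p = 0.0499). Without mouse 1514 the CKO value was 1.52 (adjusted p = 1.13e-07). Such fits held mice 1512 and 2002 alone, so their small p rest largely on a spread estimated over all genes. Aurkb, the kinase of the chromosomal passenger complex, and Kif20a, a motor of cytokinesis, rose in both genotypes under the block (control adjusted p = 9.77e-05 and 4.53e-05, CKO adjusted p = 1.42e-07 and 4.01e-05). Top2a was higher in MZ in all 6 mice (ratio 1.07 to 2.64), and rose under the block in CKO mice (1.07 ± 0.17, adjusted p = 0.0108). In control mice Top2a differed by 0.47 ± 0.22 (adjusted p = 0.241) with all mice and passed without mouse 1507 (0.26 ± 0.08, adjusted p = 0.00712). Its difference between genotypes did not pass (block adjusted p = 0.896). Mki67 was higher in MZ in 5 of 6 mice, with ratios of 1.13, 1.58 and 0.845 in control and 2.25, 1.37 and 2.36 in CKO mice. Mki67 rose under the block in CKO mice (0.94 ± 0.21, adjusted p = 0.0452) and did not pass in control mice (0.21 ± 0.25, adjusted p = 0.607). Without mouse 1514, in mice 1512 and 2002 alone, the CKO value was 1.22 (adjusted p = 3.29e-21). Kif11 differed by 1.077 ± 0.30 in CKO mice (adjusted p = 0.0944) and by 1.49 ± 0.14 without mouse 1514, where it passed (adjusted p = 7.11e-17). Mouse 1514 was left out after it stood highest in these same genes, so calls gained without it are no independent support. Ccnb1 and Aurka, a spindle pole kinase, passed in neither genotype.

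Within single mice, the median MZ over FO ratio of the 19 mitotic genes was 1.19, 1.45 and 1.02 in control mice and 1.99, 1.34 and 1.80 in CKO mice. Mice 1512 and 2002 had the highest of the 6 values, and these are the mice with the lowest FO levels. For the 19 S phase genes the medians were 0.993, 1.15 and 1.04 in control and 1.31, 1.25 and 1.16 in CKO mice. Over both groups, 9 mitotic and 8 S phase genes were higher in MZ in all 6 mice, and Cdt1 alone was lower in all 6, against 22.3% and 21.7% of 18546 genes. Erythroid, myeloid precursor and neutrophil marker sums were lower in MZ in every mouse (ratios 0.398 to 0.855), while the mitotic sum ratio was 1.001 to 2.06.

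**Figure D5:**
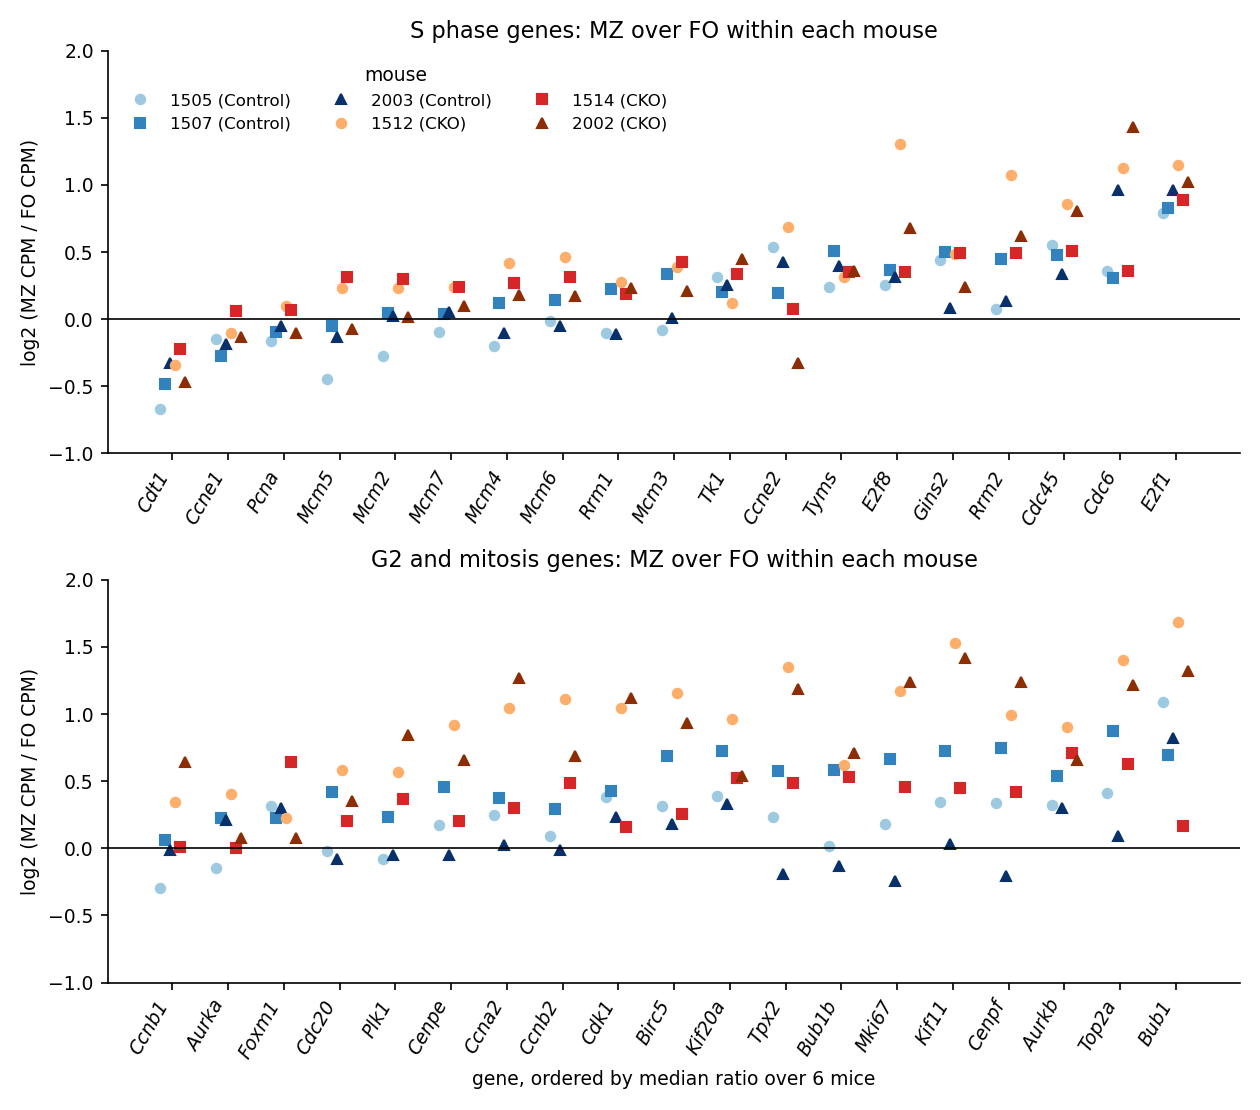
Log2 ratio of the MZ to the FO CPM within each of 6 mice for S phase genes (top) and G2 and mitosis genes (bottom), ordered by median ratio, with blue symbols for control and orange to red for CKO mice. E2f1 lies above 0 and Cdt1 below 0 in all 6 mice, and mice 1512 and 2002 are the highest for most mitotic genes.

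A mean MZ effect over all 6 mice, with the animal as a block, was added after the data were seen. It called 23 members higher and Cdt1 lower, against 25.5% and 25.0% of 18546 genes tested. Without mouse 1514 it called 19 higher and 2 lower (Cdt1 and Ccne1), against 23.3% and 23.8% of all genes. Within a genotype, single libraries did weigh on the unpaired medians, which were 0.26 (control) and 0.48 (CKO) with all libraries. Without MZ control replicate 2 (mouse 1507) the control median was -0.06 with 22 of 38 below 0. Without FO control replicate 2 it was 0.38. The CKO median was 0.01 without MZ CKO replicate 2 and 1.19 without FO CKO replicate 2. Each such fit kept the other library of that mouse. With both libraries of the mouse left out, the medians were 0.07 (control, without 1507) and 0.68 (CKO, without 1514). Leaving out both libraries of mouse 1514 gave 16 of 38 higher and 1 lower in CKO mice unpaired, against 8.68% and 6.16% of all genes. Under the block it gave 27 higher and 1 lower, against 15.5% and 12.6%. Mcm2, Mcm7, Gins2 and Foxm1 lost their call there, and Kif11 gained one. Without mouse 1507, the block called 9 of 38 higher and 2 lower in control mice, against 19.1% and 18.0% of all genes, so the higher share lay near the background. Rrm2, Ccna2, Cdk1, Birc5, Kif11, Foxm1 and Ccne1 lost their call there, and Top2a gained one. Both mice were chosen for their levels of these same genes, so gained calls are no independent support.

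Other genes of the same programmes, from a list of 30 further replication genes and a list of 37 further mitosis genes, were counted in the same way. None passed by edgeR between genotypes in FO (median log2 0.03 and 0.16) or in MZ (0.15 and 0.38), nor by DESeq2, and at an unadjusted p under 0.05 edgeR gave 1 replication gene in FO and 0 otherwise. Of all genes tested, 717 of 17777 in FO and 512 of 17658 in MZ had such a p. Without FO CKO replicate 2 the FO medians were -0.16 and -0.46, with 5 of 30 and 25 of 37 at an unadjusted p under 0.05. Of all genes in that fit 5.57% were. Without MZ CKO replicate 2 the MZ medians were 0.00 and -0.01, and none passed in either fit. The smallest p in FO with all libraries belonged to Cdc7 (0.20) and Prim1 (0.23), Lin54 (-0.14) and Pttg1 (0.65), and in MZ to Prim1 (0.25), Pole (0.33), Ndc80 (0.36) and Tacc3 (0.26). Between subsets of control mice, 6 of 30 replication genes were higher and 2 lower in MZ, against 14.9% and 13.0% of all genes. They were led by Pold1 (catalytic subunit of DNA polymerase delta, log2 -0.93), Gmnn (geminin, which inhibits the Cdt1 protein, 1.397), Chaf1a (0.65) and Ung (0.37). Of the 37 mitosis genes 6 were higher and 4 lower, against the same shares, led by Cdc25b (a phosphatase that activates CDK1, -1.31), Nusap1 (0.80), Ndc80 (-0.80) and Lin54 (a MuvB subunit, -0.39). In CKO mice 1 of 30 was higher (Gmnn, 1.18) and 1 lower (Pold1, -0.69), and 0 and 1 of 37 (Cdc25b, -1.10), against 10.5% and 7.78% of all genes. Without mouse 1514 these counts were 7 and 1 of 30 and 15 and 1 of 37, against 8.68% and 6.16% of all genes. With the animal as a block the counts were 11 higher and 4 lower of 30 and 16 and 5 of 37 in control mice. All genes had 22.4% higher and 21.3% lower there. In CKO mice the block gave 13 and 1 of 30 and 27 and 4 of 37, against 19.2% and 16.6% of all genes. Leaving out mouse 1514 there gave 10 and 1 and 26 and 1, against 15.5% and 12.6%. Geminin RNA and Cdt1 RNA thus moved in opposite directions between subsets in both genotypes.

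Some of the 38 share exon bases with a neighbouring gene in GENCODE M21, and the labels do not say whether counting used strand. This applies to 12 members, and to over 10% of the exon bases of 6: Gins2 (67.3%, with Gse1 on the other strand), Kif20a (29.3%, with Cdc23), Ccne2 (17.4%, with Ints8), Mcm7, Ccna2 and E2f8. Their values are less certain than those of the other 32.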

How the data were processed

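Bulk RNA was sequenced from 12 libraries, 3 per group, each from a separate mouse within its group. The deposited values are read counts per Ensembl gene, made by the authors with TopHat, HTSeq and DESeq2 on GRCm38 (mm10), per the submitters' processing notes. Versions, the annotation release and the strand setting of counting are not given in the sources used here. Count rows that name no gene (5 rows, 43.2% to 50.4% of each library) were left out, and 0 columns of values were unused.

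From these counts, edgeR 4.0.16 (R 4.3.3) was run on all genes that passed filterByExpr, with TMM scaling, robust quasi-likelihood fits and Benjamini-Hochberg adjustment at 0.05. All 38 members passed this filter in every comparison. CPM are counts scaled by TMM library sizes, and RPKM divide them by exon length in GENCODE M21. The SE of a log2 fold change is its size over the square root of F. DESeq2 1.42.0, other scaling, no filter, 1 fit over all libraries, a replicate or animal block and leaving out each library were alternatives. The code was tested on simulated data. Leaving out whole mice and the mean over 6 mice were chosen after seeing the data. A subset fit in CKO mice without mouse 1514 held mice 1512 and 2002 alone. One in control mice without mouse 1507 held mice 1505 and 2003 alone.

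Same-numbered FO control and CKO libraries deviated together (correlations 0.104, 0.323 and 0.361, all over the limit of 0.1), and FO and MZ libraries of the same animal number did so at 0.426 to 0.651, so blocked values stand beside those results. The MZ genotype correlations were -0.0654, 0.362 and 0.365, so that of replicate 1 lay under the limit. No label pairs a control with a CKO mouse, so the replicate number is no known pairing between genotypes in either subset.

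The members and the companion and marker lists were chosen with earlier results of these data known. Values in each library are given for a set of 13 members, for members that passed, and for the 3 with the smallest p where none did. Kif11 is given in full because it passed without mouse 1514. From companion lists, up to 4 genes that passed, or the 2 with the smallest p, are named. Promoters are RefSeq's, on GRCm38.p6.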

Additional observations from a re-analysis of the deposited data

How the results depend on the processing

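The direction of the genotype differences changed with the libraries of mouse 1514. Mki67 reversed in FO with the replicate block (-0.19), without mice 1507 and 1514 (-0.81) and without FO CKO replicate 2, where leaving out 1 library gave log2 values from -0.94 to 0.68. In MZ its range was -0.037 (without CKO replicate 2) to 1.11, and for the difference of genotype effects -0.29 (without MZ CKO replicate 2) to 1.63 (without FO CKO replicate 2). Between subsets of control mice it ran from -0.14 (without MZ control replicate 2) to 0.54, and was -0.010 without mouse 1507 and -0.026 when the block was added. The number of FO members lower in CKO was 0 to 1 when 1 library was left out. In MZ the replicate block called 1 member higher (Mki67, 0.56, adjusted p = 0.00947). The replicate number is no known pairing of control and CKO mice in either subset. For MZ over FO in control mice the higher count of 2 became 8 with no filter on low counts and 14 with the animal block. It was 1 in the fit over all 12 libraries and 1 to 4 with 1 library left out. With the block without mouse 1507 it was 9. The lower count of 1 became 3 with the block and 1 to 2 with 1 library left out. Without mouse 1507 it was 2, with or without the block. Over all genes the higher count of 2653 (14.9%) became 2855 with no filter and 3999 (22.4%) with the block. It was 2508 in the fit over all libraries and 1958 to 2609 with 1 library left out. With the block without mouse 1507 it was 3420 (19.1%). The lower share of 13.0% became 21.3% with the block and 18.0% with the block without mouse 1507. In CKO mice the higher count of 2 became 1 with RLE scaling, without robust estimates or in the fit over all libraries. It was 30 with the block, 16 without mouse 1514 (27 with the block) and 0 to 2 with 1 library left out. The lower count of 1 became 0 to 1. Over all genes the higher count was 1865 (10.5%), and 1823, 1772 and 2308 with those first alternatives. It was 3396 (19.2%) with the block and 1550 (8.68%) without mouse 1514, or 2768 (15.5%) with the block. With 1 library left out it was 1097 to 1639. The lower share of 7.78% became 16.6% with the block and 6.16% without mouse 1514, or 12.6% with the block. The mean over 6 mice called 23 higher, against 25.5% of all genes. Without mouse 1514 it called 19 higher and 2 lower, against 23.3% and 23.8%. The median over the 38 moved to -0.44 (FO genotype) and 0.80 (difference of effects) without FO CKO replicate 2, and to 1.19 for the CKO subset comparison. The fits for the difference of effects and the CKO subset comparison kept the MZ library of mouse 1514. The cause was not tested. Of the counts of members under alternatives, 115 stayed within 1.5 times the reported one and 35 did not. This tally includes the reported counts of 0 in both genotype comparisons and in their difference, for which such a limit means little. Over all genes, DESeq2 called 22 higher and 20 lower in FO, against 10 and 6 by edgeR, and 24 and 11 in MZ, against 10 and 4. With no filter edgeR called 72 and 68 in FO and 61 and 34 in MZ, and with the replicate block 18 and 7 and 40 and 17.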

Other observations

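Genes that act before S phase were compared between MZ and FO B cells in the same way. Of 11 G1 cyclins and kinases, 4 were higher in MZ in control mice and the count was 4 in CKO mice (edgeR), with 3 and 0 lower, beside 14.9% higher and 13.0% lower of all genes in control and 10.5% and 7.78% in CKO mice. Myc, a growth-promoting transcription factor, rose by 1.13 ± 0.08 (log2, SE) in control and 1.15 ± 0.11 in CKO mice, Cdc25a, which activates cyclin-dependent kinases, by 0.83 and 0.89, Cdk4 by 0.45 and 0.49 and E2f3 by 0.65 and 0.69. Of 19 cell cycle inhibitor and quiescence genes (17 tested), 2 were higher and 6 lower in MZ of control mice, and 1 and 3 in CKO mice. The shares of all genes were again 14.9% and 13.0% in control and 10.5% and 7.78% in CKO mice. Without mouse 1514 the CKO counts were 4 and 0 of 11 and 1 and 3 of 17, against 8.68% and 6.16% of all genes. Klf2, a quiescence factor of lymphocytes, fell by 2.17 and 1.86 on the log2 scale, Cdkn2d, an inhibitor of CDK4 and CDK6, by 1.498 and 1.19, and Foxo1 by 0.42 and 0.32, whereas Rb1, the retinoblastoma gene, rose by 0.46 and 0.38. Between genotypes, no gene of these lists passed by edgeR or DESeq2 in FO or MZ, with 2 G1 genes and 1 inhibitor gene in FO and 0 and 1 in MZ at an unadjusted edgeR p under 0.05. Of all genes tested, 717 of 17777 in FO and 512 of 17658 in MZ had such a p. Without the CKO library of mouse 1514 none passed by edgeR either, with 1 and 1 in FO and 0 and 0 in MZ at that unadjusted p. All genes at that p then numbered 1012 of 18165 in FO and 526 of 17914 in MZ.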
